A study of Mus musculus with 24 samples.

Results

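Chromatin accessibility was examined at 10 nuclear receptor genes that macrophages are known to use: Pparg, Ppard, Nr1h3, Rxra, Rara, Vdr, Nr3c1, Nr4a1, Nr4a2 and Nr4a3. All consensus peaks (regions of open chromatin merged over the libraries) that overlapped the body of one of these genes, or the 20 kb on either side of it, were taken, and each peak was given to the nearest of the 10 genes. This gave 185 of 184158 consensus peaks, of which 180 had enough counts to be tested. The 5 peaks left untested were 3 beyond the end of Pparg, 1 downstream of Nr4a1 and 1 upstream of Nr4a2. By position in the gene, 15 of the 185 peaks covered a transcription start site (TSS) of their receptor gene in the basic GENCODE annotation, 10 overlapped another exon, 98 lay in introns, 32 upstream and 30 downstream. Below, a peak is named by its gene and by the distance of its centre from the first annotated base of that gene, counted in the direction of transcription, so that Rxra +17.4 kb lies 17.4 kb into Rxra.

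The data were 24 ATAC-seq libraries (a transposase cuts and tags open DNA, and the fragments are sequenced) from mouse bone marrow-derived macrophages (BMDMs), with 6 libraries in each of 4 groups. These were WT or AhR-KO cells, either left unstimulated or given LPS. WT marrow was C57BL/6J, and AhR-KO marrow carried the Ahr tm1Bra allele, which disrupts the aryl hydrocarbon receptor (AhR) in every cell of the animal. All 4 groups were grown with GM-CSF at 10 ng/ml, TGF-β at 2 ng/ml and 10% serum, which drives cells resembling alveolar macrophages. LPS, a bacterial lipopolysaccharide, was used at 97 EU/ml from day 6 for 24 h, and ionophore A23187 was present at 5 µM for the last 10 min. The labels attach this treatment text to unstimulated libraries too. The study used adult mice of both sexes, matched for age and sex, and the cultures are a model made in a flask, with no cells taken from the lung.

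Nuclear receptors are transcription factors, most of which are switched by small lipid-soluble ligands. PPARγ (Pparg), PPARδ (Ppard), LXRα (Nr1h3), RARα (Rara) and the vitamin D receptor (Vdr) bind DNA as dimers with a shared partner, RXRα (Rxra), and sense fatty acids, oxysterols, retinoic acid and vitamin D. The glucocorticoid receptor (Nr3c1) binds as a homodimer or through other factors and is the target of anti-inflammatory steroids, whereas Nr4a1, Nr4a2 and Nr4a3 encode orphan receptors that are induced early after stimulation. PPARγ is known as a master regulator of alveolar macrophages, which GM-CSF induces. AhR is a ligand-activated factor of another family, which binds with its partner ARNT to the core letters GCGTG.

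The totals of counted fragments in consensus peaks ranged from 8.54 to 34.6 M per library. No peak covered Ahr exon 2, so the genotype was checked 16.8 kb past the end of Ahr, at a peak that held 32 to 234 counts in the 12 WT libraries and 0 to 6 in the 12 AhR-KO libraries. Of the macrophage markers, 7 of 8 had a peak over a start site, against 3 of 4 for dendritic cells, 3 of 4 for fibroblasts or epithelial cells, 1 of 4 for neutrophils, 1 of 4 for B cells and 0 of 4 for T cells. None of the 10 receptor genes lies on chromosome 12, which carries Ahr.

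Sequences of 4 peaks are shown because the main patterns described below turn on them. Each is the 300 bases around the peak centre on the plus strand of mm10 (RefSeq, GRCm38.p6), and capitals mark matches on either strand to the motifs searched, which were the AhR core GCGTG, the receptor hexamer AGGTCA, the NR4A site AAAGGTCA, AP-1 TGACTCA, CRE TGACGTCA, the PU.1 core GAGGAA and, by name, the direct repeats DR1 and DR4, the glucocorticoid response element and NF-kB. Ppard -3.3 kb (chr17:28229243-28229542) opened with LPS and held no match. Rara +12.5 kb (chr11:98940210-98940509) and Rara +39.1 kb (chr11:98966813-98967112) differed between the genotypes in opposite directions. The former held 2 AhR cores and 1 PU.1 core and the latter 1 AhR core. Rxra +17.4 kb (chr2:27693686-27693985) lost accessibility with LPS and held 1 AP-1 site and 1 PU.1 core.
Ppard -3.3 kb: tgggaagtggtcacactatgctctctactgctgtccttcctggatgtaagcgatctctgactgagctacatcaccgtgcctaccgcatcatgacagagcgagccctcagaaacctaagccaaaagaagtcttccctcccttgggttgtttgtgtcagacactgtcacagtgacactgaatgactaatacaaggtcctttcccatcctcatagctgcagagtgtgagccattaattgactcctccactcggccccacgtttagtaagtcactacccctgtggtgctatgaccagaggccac
Rara +12.5 kb: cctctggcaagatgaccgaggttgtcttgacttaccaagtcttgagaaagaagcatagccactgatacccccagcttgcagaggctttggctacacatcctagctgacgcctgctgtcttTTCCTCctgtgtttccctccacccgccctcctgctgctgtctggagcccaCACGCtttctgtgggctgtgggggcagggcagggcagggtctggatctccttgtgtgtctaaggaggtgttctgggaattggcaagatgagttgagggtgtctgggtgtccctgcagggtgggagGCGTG
Rara +39.1 kb: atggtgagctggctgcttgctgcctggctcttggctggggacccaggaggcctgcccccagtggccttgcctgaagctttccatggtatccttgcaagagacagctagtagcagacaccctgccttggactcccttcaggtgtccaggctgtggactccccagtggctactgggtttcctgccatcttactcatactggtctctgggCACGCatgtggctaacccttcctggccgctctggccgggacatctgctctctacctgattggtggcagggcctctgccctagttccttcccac
Rxra +17.4 kb: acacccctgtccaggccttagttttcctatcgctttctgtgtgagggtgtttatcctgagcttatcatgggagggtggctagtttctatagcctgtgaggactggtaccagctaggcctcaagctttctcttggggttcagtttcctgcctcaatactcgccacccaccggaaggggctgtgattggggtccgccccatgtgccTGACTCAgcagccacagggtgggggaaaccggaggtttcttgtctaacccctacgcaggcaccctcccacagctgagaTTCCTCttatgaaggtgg

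Differentially accessible regions (DARs) were peaks with a quasi-likelihood adjusted p (edgeR, over all 174193 tested peaks) no higher than 0.05 that changed 1.5-fold or more. In unstimulated cells, AhR-KO libraries were lower than WT at 14 of the 180 receptor peaks (7.78%, against 12.6% of all tested peaks) and higher at 20 (11.1%, against 9.95%). With LPS, 16 were lower in AhR-KO (8.89%, against 13.1%) and 15 higher (8.33%, against 13.4%). The shares of receptor peaks called between genotypes were thus near or below those of all peaks, and the split in unstimulated cells depended on the scaling, with 10 lower and 27 higher under size factors of DESeq2 type and 8 lower and 23 higher under a stricter filter on counts. With LPS that filter gave 8 higher peaks in place of 15.

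LPS changed more receptor peaks. In WT cells 45 of 180 were lower with LPS (25%, against 21.6% of all tested peaks) and 35 higher (19.4%, against 25.4%), and in AhR-KO cells 54 were lower (against 21.5%) and 35 higher (19.4%, against 27.3%). In both genotypes the share lowered by LPS was above that of all peaks and the share raised was below it, differences that were not tested. The interaction, the LPS change in AhR-KO minus the LPS change in WT, was negative and past both thresholds at 18 peaks (10.0%, against 4.58%) and positive at 11 (6.11%, against 5.83%). Of the 18 negative interactions, 10 were at Rxra alone. The negative share was 3.03% to 9.57% in the lists of related genes described below and 14.8% at macrophage markers. The median log2 fold change of the receptor peaks was 0.15 and 0.08 for AhR-KO against WT without and with LPS, -0.17 for LPS in either genotype and -0.10 for the interaction. These counts describe the chosen genes and were not tested against other gene lists.

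Summed over all tested peaks of a gene, in CPM (counts per M counts in peaks, TMM-normalised), 6 of the 10 genes had libraries that did not overlap between the unstimulated genotypes, as did 35.7% of 19274 protein-coding genes summed by the same rule. AhR-KO was above WT at 3 (against 18.3% of all those genes) and below at 3 (against 17.4%). With LPS 2 of the 10 did not overlap, against 17.7%, with 0 above (against 8.4%) and 2 below (against 9.33%). Unstimulated AhR-KO libraries lay between 137 and 166 CPM at Pparg, above the WT libraries at 111 to 130 CPM. At Nr1h3 they lay between 93.8 and 114 CPM, against 78.9 to 87.7 CPM in WT, and at Rxra between 147 and 196 CPM, against 122 to 135 CPM. At Nr3c1, Nr4a2 and Nr4a3 the order was the other way round. Nr3c1 sums were 142 to 151 CPM in AhR-KO and 155 to 170.2 CPM in WT. At Nr4a2 the AhR-KO libraries held 91.2 to 108 CPM and WT 124 to 136 CPM, and with LPS 96.0 to 111 CPM and 124 to 136 CPM. Nr4a3 sums were 67.003 to 78.3 CPM in AhR-KO and 79.7 to 91.9 CPM in WT, and with LPS 68.3 to 80.0 CPM and 84.5 to 104 CPM. These sums mix peaks that moved in different directions and were not tested. They were taken with TMM scaling only, and whether the libraries stay apart under other scalings was not checked. Without LPS the ranges came closest at Nr4a3 and Nr3c1. In bulk cultures, fewer cells with an open site and a less open site per cell cannot be told apart.

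**Figure D1:**
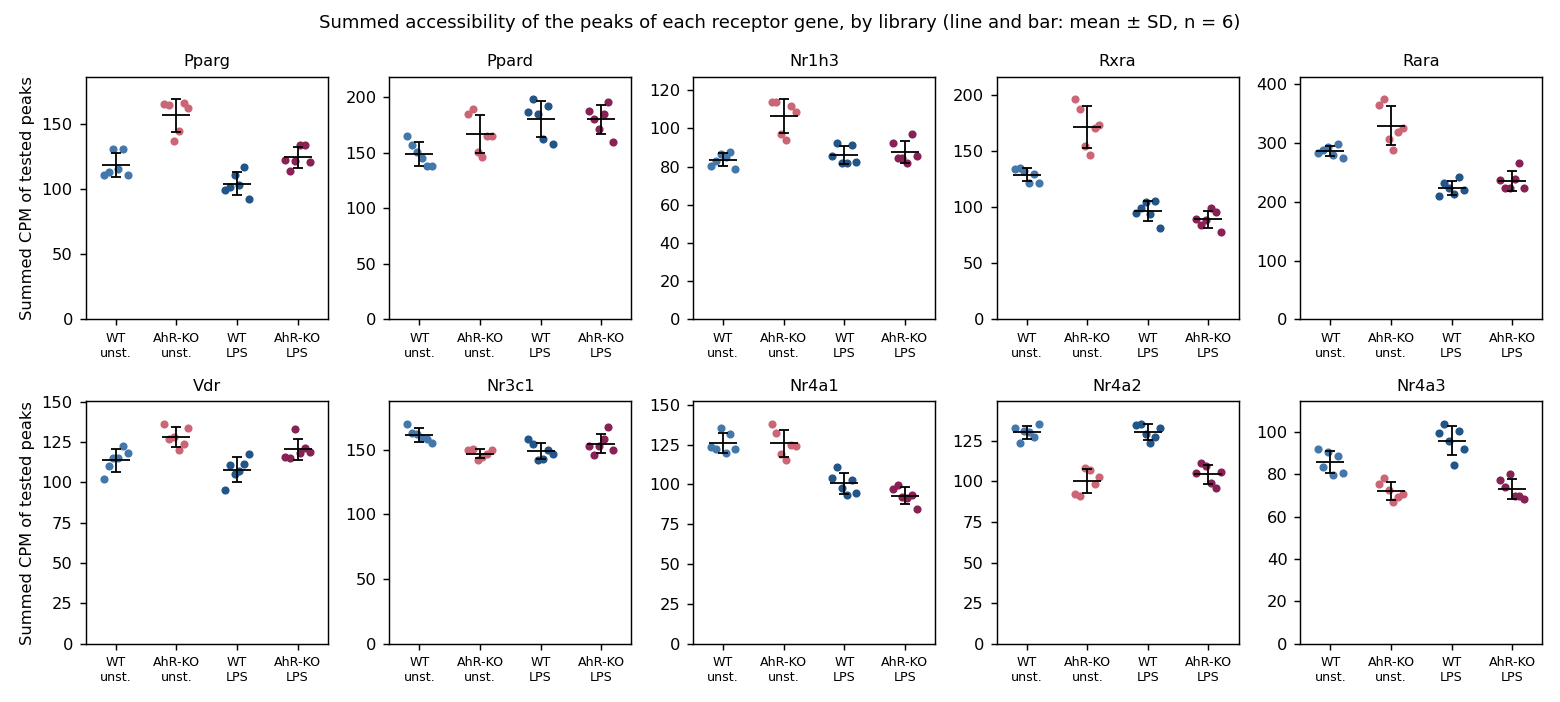
Summed CPM of the tested peaks of each receptor gene (vertical axis, from 0) in each of the 24 libraries, by group, with lines and bars for mean ± SD of 6 libraries. Unstimulated AhR-KO libraries lie above unstimulated WT libraries at Pparg, Nr1h3 and Rxra and below them at Nr3c1, Nr4a2 and Nr4a3.

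Pparg (chr6:115360951-115490399, plus strand, 29 tested peaks) gained accessibility in unstimulated AhR-KO cells at 6 peaks (20.7%, against 9.95% of all tested peaks) and lost it at 1 (3.45%, against 12.6%). With LPS, 2 peaks were higher in AhR-KO (6.9%, against 13.4%) and 0 lower (against 13.1%). LPS closed 10 peaks (34.5%, against 21.6%) and opened 4 (13.8%, against 25.4%) in WT. In AhR-KO it closed 12 (41.4%, against 21.5%) and opened 4 (13.8%, against 27.3%). The genotype difference was clearest at Pparg +102.2 kb, which overlaps a coding exon. WT libraries ranged from 5.11 to 7.33 CPM (median 6.08) and AhR-KO from 10.3 to 13.3 CPM (median 11.9) before stimulation, so all 6 AhR-KO libraries were above all WT libraries, with a log2 fold change of 0.93 ± 0.10 (SE, adjusted p = 4.55e-09). With LPS the levels came close, at 4.38 ± 0.62 CPM in WT and 5.36 ± 0.47 CPM in AhR-KO (SD, n = 6). LPS lowered this exonic peak by a log2 fold change of -1.13 ± 0.10 in AhR-KO (adjusted p = 3.66e-12), and the interaction was -0.64 ± 0.15 (adjusted p = 0.003).

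Downstream of the gene, Pparg +144.2 kb followed the same course. Its levels were 5.67 ± 1.04 CPM in WT and 9.95 ± 0.71 CPM in AhR-KO unstimulated cells, and 3.32 ± 0.55 and 3.72 ± 0.44 CPM with LPS. The genotype difference before stimulation was 0.82 ± 0.11 (log2, adjusted p = 2.53e-07), the LPS change -0.77 ± 0.12 in WT and -1.42 ± 0.11 in AhR-KO. Its interaction of -0.65 fell below the fold minimum, at -0.58, without WT unstimulated replicate 1 or without WT LPS replicate 5. A weak intronic peak, Pparg +77.2 kb, was the exception to this course. Its level was near 0 in 3 groups, with means of 0.106, 0.106 and 0.18 CPM, and held 0.538 to 0.871 CPM in AhR-KO LPS libraries, all above the WT LPS libraries at 0.0977 to 0.261 CPM. The difference was 1.94 ± 0.29 (log2, adjusted p = 1.21e-06), while 1 of 6 AhR-KO LPS libraries and none of the other 18 had it in their own peak list. Its interaction of 1.99 was no longer called without WT unstimulated replicate 2 (1.91) or 3 (1.91), or AhR-KO unstimulated replicate 6 (1.83).

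Ppard (chr17:28232700-28301474, plus strand, 23 tested peaks) held the receptor peak with the strongest response to LPS. Ppard -3.3 kb lay upstream of the gene, in no other gene body. Unstimulated libraries held 0.198 to 0.349 CPM in WT and 0.228 to 0.757 CPM in AhR-KO. LPS libraries held 6.35 to 11.2 CPM (median 8.28) in WT and 7.30 to 11.4 CPM (median 8.85) in AhR-KO, so that no stimulated library came near an unstimulated one. The log2 fold change with LPS was 4.85 ± 0.22 in WT (adjusted p = 1.21e-19) and 4.496 ± 0.20 in AhR-KO (adjusted p = 2.58e-20). No unstimulated library listed a peak there in its own calls, whereas all 12 LPS libraries did. Its interaction was -0.35 ± 0.38 and was not called, an estimate whose error spans changes in either direction.

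Beside it, Ppard -4.9 kb, which lies inside the neighbouring gene Def6, rose with LPS by log2 fold changes of 2.48 ± 0.18 in WT and 2.604 ± 0.20 in AhR-KO. It was lower in AhR-KO than in WT in both treatments, at 0.428 ± 0.042 against 0.712 ± 0.126 CPM and at 2.62 ± 0.43 against 4.10 ± 0.99 CPM. The LPS call of -0.64 rested on a few libraries and was lost without WT LPS replicate 3 (-0.55) or AhR-KO LPS replicate 6 (-0.58). In all, LPS opened 7 of 23 Ppard peaks (30.4%, against 25.4% of all tested peaks) and closed 2 (8.7%, against 21.6%) in WT. In AhR-KO it opened 9 (39.1%, against 27.3%) and closed 3 (against 21.5%). The peak most changed by genotype was intronic, Ppard +43.4 kb, with 0.814 to 2.71 CPM (median 1.63) in WT and 0.217 to 0.424 CPM (median 0.327) in AhR-KO unstimulated libraries. The groups did not overlap, and the log2 fold change was -2.32 ± 0.26 (adjusted p = 5.09e-09). With LPS the levels were 0.720 ± 0.130 and 0.548 ± 0.170 CPM, overlapping, and the interaction was 1.92 ± 0.37 (adjusted p = 0.000413). Its rise with LPS in AhR-KO (0.74) was no longer called without AhR-KO unstimulated replicate 1, 3 or 4 or AhR-KO LPS replicate 4 (0.58 to 0.69).

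Nr1h3 (chr2:91184061-91202834, minus strand, 8 tested peaks) encodes LXRα, which switches on cholesterol efflux genes. In unstimulated AhR-KO cells 2 of its 8 peaks were higher (against 9.95% of all tested peaks) and 0 lower (against 12.6%). With LPS 0 were called between genotypes (against 13.4% higher and 13.1% lower). So few peaks make such shares coarse. Nr1h3 +0.1 kb, at the first annotated base, also covers a start site of the neighbouring gene Acp2, so the signal cannot be given to one gene. It held 10.1 to 12.4 CPM (median 11.2) in WT and 15.1 to 18.4 CPM (median 17.2) in AhR-KO, without overlap, a log2 difference of 0.60 ± 0.077 (adjusted p = 7.86e-08). The call sat at the edge of the fold minimum and was lost without WT unstimulated replicate 5 or 6 or AhR-KO unstimulated replicate 2 or 5, with values of 0.57 to 0.58. With LPS, 3 peaks were higher (37.5%, against 25.4%) and 0 lower (against 21.6%) in WT. In AhR-KO 3 were higher (37.5%, against 27.3%) and 2 lower (against 21.5%). The lowered peaks in AhR-KO were the start-site peak Nr1h3 +7.9 kb (-0.63) and Nr1h3 +19.6 kb, which covers the end of Nr1h3 and a start site of Madd, and which fell from 32.4 ± 3.8 to 19.95 ± 1.5 CPM (log2 fold change -0.70 ± 0.068, adjusted p = 2.33e-11). The start-site call was lost without AhR-KO unstimulated replicate 1, at -0.58.

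Rxra (chr2:27676440-27762957, plus strand, 21 tested peaks) encodes the common dimer partner, and it had the most interaction calls of the 10 genes. In unstimulated cells 8 of its 21 peaks were higher in AhR-KO (38.1%, against 9.95% of all tested peaks) and 0 lower, with log2 fold changes of 0.61 to 0.89. With LPS, 1 peak was higher (4.76%, against 13.4%) and 3 lower (14.3%, near the 13.1% of all peaks) in AhR-KO. LPS closed 10 peaks (47.6%, against 21.6%) and opened 2 (9.52%, against 25.4%) in WT. In AhR-KO it closed 14 (66.7%, against 21.5%), by 0.59 to 2.59 on the log2 scale, and opened 0 (against 27.3%). The interaction was past both thresholds at 10 of 21 Rxra peaks and negative at each of them (47.6%, against 4.58%), from -1.25 to -0.59. This means that LPS lowered accessibility further in AhR-KO, or raised it less, than in WT. These counts were the same under the alternative scalings, apart from 9 higher peaks in unstimulated cells under DESeq2 and its size factors.

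At Rxra +17.4 kb, the intronic peak whose sequence is given above, WT unstimulated libraries ranged from 10.8 to 14.5 CPM (median 11.9) and AhR-KO unstimulated from 15.6 to 21.4 CPM (median 19.03). With LPS the ranges were 2.97 to 4.28 CPM (median 3.59) and 2.11 to 4.20 CPM (median 3.30). Every AhR-KO library exceeded every WT library before stimulation, while the genotypes overlapped after it. The genotype difference was 0.65 ± 0.10 (log2, adjusted p = 2.4e-06) without LPS and -0.20 ± 0.12 (adjusted p = 0.186) with LPS. LPS lowered the peak by a log2 fold change of -1.73 ± 0.11 in WT (adjusted p = 6.49e-16) and -2.59 ± 0.11 in AhR-KO (adjusted p = 4.42e-21), with an interaction of -0.85 ± 0.16 (adjusted p = 0.000322). The neighbouring intronic peak Rxra +14.7 kb behaved alike, at 4.46 CPM in WT and 7.54 CPM in AhR-KO unstimulated cells, and 1.43 and 1.25 CPM with LPS. It was in the own peak lists of all 12 unstimulated libraries and of 0 of 12 LPS libraries.

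The strongest Rxra peak of those named, Rxra +39 kb, fell from 53.9 ± 5.6 to 26.98 ± 2.4 CPM with LPS in AhR-KO (-0.998 ± 0.078, adjusted p = 1.95e-13) and from 41.1 ± 2.6 to 30.96 ± 4.4 CPM in WT, a change under the fold minimum. Its interaction of -0.59 was at the fold minimum and was lost without any one of 7 libraries, namely WT unstimulated replicate 4, replicates 1, 2 and 5 of AhR-KO unstimulated, replicates 3 and 5 of WT LPS and replicate 6 of AhR-KO LPS (-0.58 to -0.54). Further into the gene, Rxra +48.8 kb differed between genotypes after LPS. It held 2.05 to 3.30 CPM (median 2.33) in WT LPS and 0.727 to 1.98 CPM (median 1.09) in AhR-KO LPS libraries, which did not overlap, a log2 difference of -1.08 ± 0.16 (adjusted p = 1.37e-06), and 6.82 ± 0.54 and 6.20 ± 0.85 CPM before stimulation.

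**Figure D2:**
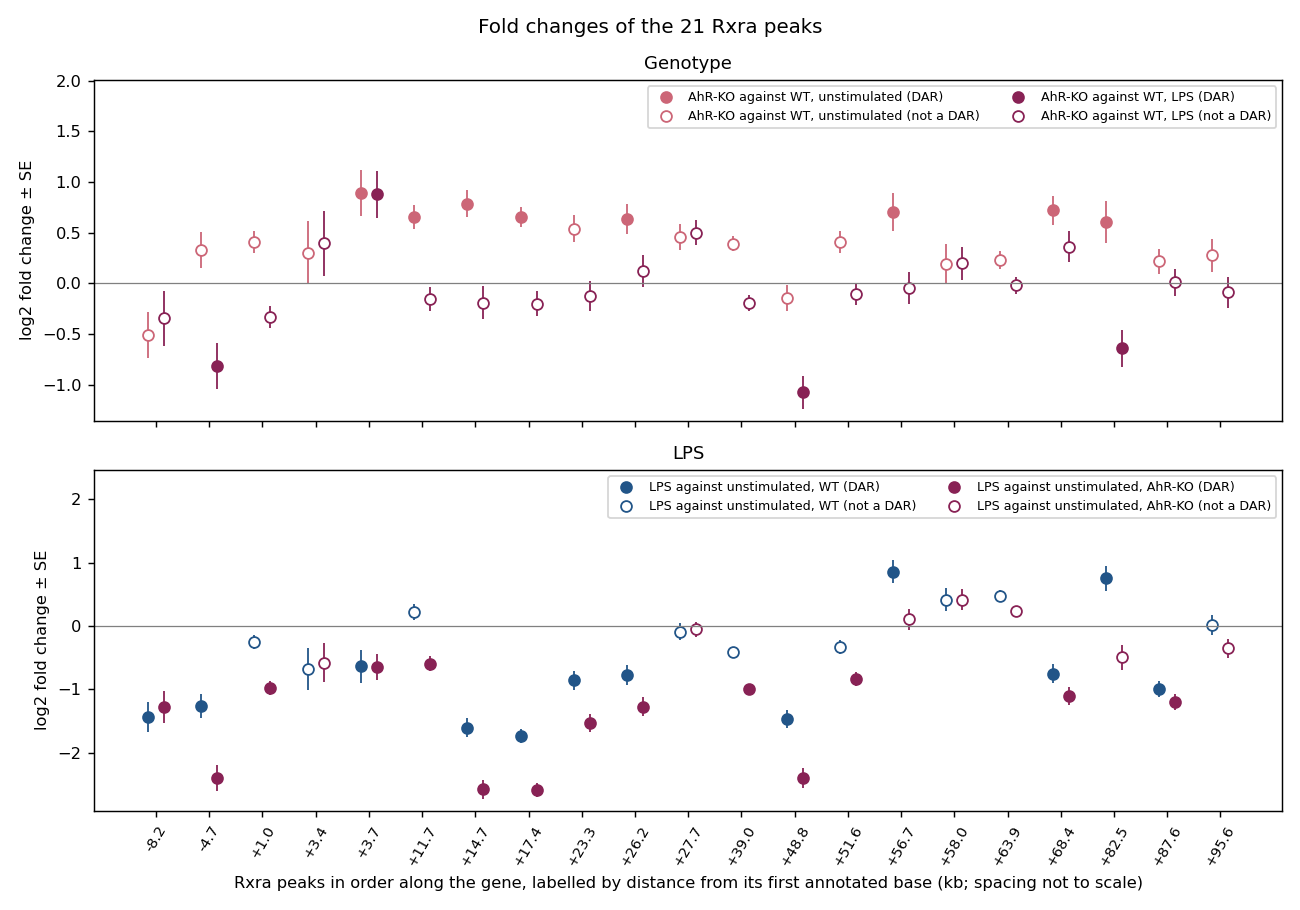
Log2 fold changes with SE (vertical axes) of the 21 Rxra peaks in order along the gene, for AhR-KO against WT in each treatment (upper panel) and for LPS against unstimulated in each genotype (lower panel), with filled points for DARs. In the upper panel the 8 filled points of unstimulated cells lie between 0.61 and 0.89, and in the lower panel the AhR-KO points lie below the WT points at the 10 peaks with a called interaction.

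Macrophage marker genes moved with the genotype in unstimulated cells as well. The summed CPM of the start-site peaks of the 7 markers was 124 to 137 in WT and 147 to 192 in AhR-KO unstimulated libraries, and 117 to 132 and 118 to 151 with LPS. Of the 155 tested peaks at all 8 marker genes, 43 were higher (27.7%, against 9.95% of all tested peaks) and 12 lower (7.74%, against 12.6%) in unstimulated AhR-KO cells. After LPS 21 were lower (13.5%, against 13.1%) and 19 higher (12.3%, against 13.4%) in AhR-KO. LPS lowered 72 of them in AhR-KO (46.5%, against 21.5%) and raised 28 (18.1%, against 27.3%). In WT it lowered 43 (27.7%, against 21.6%) and raised 30 (19.4%, against 25.4%). The interaction was negative at 23 (14.8%, against 4.58%) and positive at 4 (2.58%, against 5.83%). At the markers of other cells, 12 of 45 B cell peaks (26.7%), 13 of 62 dendritic cell peaks (21%), 7 of 37 neutrophil peaks (18.9%), 4 of 24 T cell peaks (16.7%) and 4 of 43 fibroblast or epithelial peaks (9.3%) were lower in unstimulated AhR-KO cells, and 1 to 6 of each list were higher. With LPS the lower peaks were 21 (46.7%), 19 (30.6%), 7 (18.9%), 7 (29.2%) and 5 (11.6%) in the same order, against 13.1% of all peaks, and 0 to 4 were higher. Start-site peaks of single markers went either way. Without LPS the mean levels in WT and AhR-KO were 9.07 and 4.09 CPM at Flt3 and 21.6 and 25.1 CPM at the larger peak of Zbtb46, both dendritic cell markers, 20.2 and 24.0 CPM at the neutrophil marker S100a8, and 7.63 and 6.21 CPM at the B cell marker Ebf1. Summed over the dendritic cell markers, libraries held 26.8 to 35.5 CPM in WT and 28.2 to 33.8 CPM in AhR-KO without LPS, and 29.1 to 46.2 CPM and 22.2 to 28.5 CPM with LPS. Whether such shifts had a part in the changes at the receptor genes was not tested.

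Rara (chr11:98927818-98974942, plus strand, 24 tested peaks), the retinoic acid receptor α gene, was lowered by LPS at 6 of 24 peaks in WT (against 21.6% of all tested peaks). In AhR-KO 7 were lowered (29.2%, against 21.5%). LPS raised 0 of them in either genotype (against 25.4% in WT and 27.3% in AhR-KO). At Rara +12.5 kb, an intronic peak close to an internal start site, WT unstimulated libraries held 11.95 to 18.7 CPM (median 15.1) and AhR-KO 22.4 to 33.4 CPM (median 26.1), without overlap. With LPS the levels fell to 6.45 ± 0.88 CPM in WT and 5.62 ± 0.71 CPM in AhR-KO, and the genotypes overlapped. The genotype difference was 0.84 ± 0.10 (log2, adjusted p = 3.29e-08) without LPS, the LPS changes were -1.24 ± 0.11 and -2.27 ± 0.11, and the interaction was -1.03 ± 0.15 (adjusted p = 1.76e-05). This was the same course as at Rxra +17.4 kb.

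The opposite was seen at Rara +39.1 kb, a weaker intronic peak. Its range was 2.33 to 4.23 CPM (median 3.76) in WT and 0.593 to 1.30 CPM (median 0.962) in AhR-KO unstimulated libraries, again without overlap, a log2 fold change of -1.90 ± 0.18 (adjusted p = 6.99e-11). With LPS, WT fell to 1.49 ± 0.26 CPM while AhR-KO was at 1.103 ± 0.13 CPM (LPS change 0.22 ± 0.19, not called), and the interaction was 1.46 ± 0.25 (adjusted p = 0.000109). In the libraries' own peak lists it was present in 5 of 6 WT and 0 of 6 AhR-KO unstimulated libraries. Larger intronic peaks closed with LPS in both genotypes. The log2 fold changes were -1.25 (WT) and -1.45 (AhR-KO) at Rara +24.8 kb and -1.04 and -1.09 at Rara +35.6 kb, with interactions of -0.20 ± 0.13 and -0.06 ± 0.12 that were not called.

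**Figure D3:**
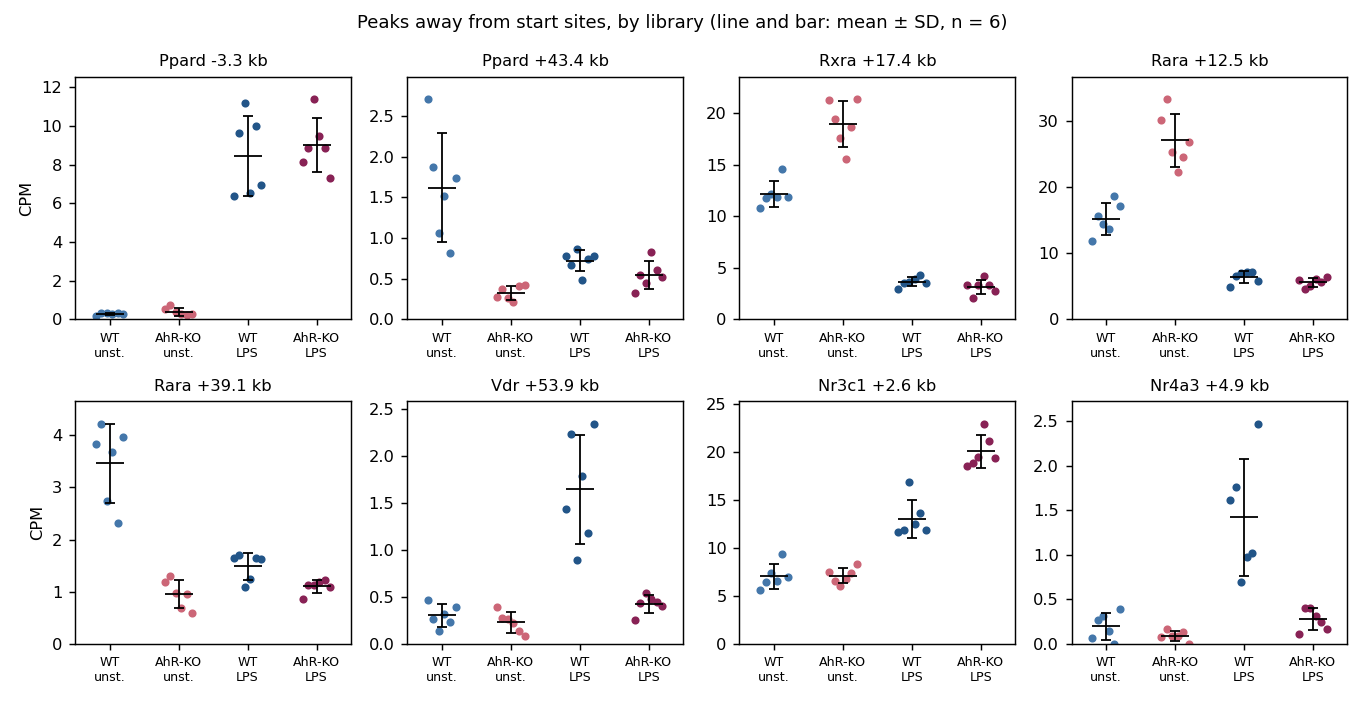
CPM (vertical axis, from 0) of 8 peaks away from start sites in each of the 24 libraries, by group, with lines and bars for mean ± SD of 6 libraries. Rxra +17.4 kb and Rara +12.5 kb are highest in AhR-KO unstimulated libraries and low in both LPS groups, whereas Ppard +43.4 kb and Rara +39.1 kb are highest in WT unstimulated libraries and Vdr +53.9 kb and Nr4a3 +4.9 kb in WT LPS libraries.

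Vdr (chr15:97854425-97910630, minus strand, 23 tested peaks), the vitamin D receptor gene, had calls in both directions. In unstimulated AhR-KO cells 2 peaks were lower and 2 higher (8.7% each, against 12.6% and 9.95% of all tested peaks). After LPS, 2 were lower (8.7%, against 13.1%) and 4 higher (17.4%, against 13.4%). In each genotype LPS lowered 4 (17.4%, against 21.6% in WT and 21.5% in AhR-KO) and raised 6 (26.1%, against 25.4% and 27.3%). Vdr +53.9 kb, in the untranslated part of an exon, opened with LPS chiefly in WT. Its level was 0.890 to 2.35 CPM (median 1.61) in WT LPS libraries and 0.251 to 0.542 CPM (median 0.442) in AhR-KO LPS libraries, without overlap, and at most 0.462 CPM in an unstimulated library. The genotype difference with LPS was -1.95 ± 0.25 (log2, adjusted p = 6.23e-08), and the LPS changes were 2.44 ± 0.29 in WT and 0.87 ± 0.35 in AhR-KO. The call in AhR-KO was lost without AhR-KO unstimulated replicate 5 (0.76) or 6 (0.69) or AhR-KO LPS replicate 3 (0.80). The interaction of -1.57 ± 0.48 (adjusted p = 0.0232) was lost without AhR-KO unstimulated replicate 1 (-1.33).

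Past the end of Vdr, toward Hdac7, 2 further peaks differed. Vdr +57.7 kb held 1.55 ± 0.74 CPM in WT and 0.411 ± 0.152 CPM in AhR-KO unstimulated cells, a log2 difference of -1.97 ± 0.28 (adjusted p = 4.37e-07), although the libraries overlapped because the lowest WT library was at 0.349 CPM. Its interaction was 1.73 ± 0.40 (adjusted p = 0.00261). Vdr +72.9 kb lies in the body of Hdac7, a histone deacetylase gene, and rose with LPS from 0.864 ± 0.165 to 2.34 ± 0.28 CPM in WT and from 0.687 ± 0.213 to 3.30 ± 0.43 CPM in AhR-KO. The interaction was 0.88 ± 0.25 (adjusted p = 0.0136).

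Nr3c1 (chr18:39410545-39519421, minus strand, 24 tested peaks), the glucocorticoid receptor gene, had 2 lower peaks in AhR-KO without LPS (8.33%, against 12.6% of all tested peaks) and 0 higher (against 9.95%). Under DESeq2 or its size factors these became 0 lower and 1 higher. With LPS, 1 was lower (4.17%, against 13.1%) and 5 higher (20.8%, against 13.4%) under each scaling tried. LPS opened 6 of the 24 peaks (against 25.4%) and closed 5 (20.8%, against 21.6%) in WT. In AhR-KO it opened 8 (33.3%, against 27.3%) and closed 2 (8.33%, against 21.5%). At Nr3c1 +2.6 kb, an intronic peak, the genotypes overlapped before stimulation, at 5.55 to 9.31 CPM (median 6.76) in WT and 6.06 to 8.26 CPM (median 7.06) in AhR-KO. With LPS, WT libraries held 11.6 to 16.8 CPM (median 12.2) and AhR-KO 18.5 to 22.9 CPM (median 19.4), so that all AhR-KO libraries were above all WT libraries. The difference with LPS was 0.62 ± 0.091 (log2, adjusted p = 7.72e-07). It fell below the fold minimum without AhR-KO LPS replicate 4, at 0.58. The LPS changes were 0.92 ± 0.10 in WT and 1.499 ± 0.097 in AhR-KO, with an interaction of 0.58 ± 0.14 that passed the adjusted p (0.00421) but not the fold minimum.

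Nr3c1 +76.8 kb was higher in AhR-KO than in WT with LPS, at 8.76 ± 1.38 against 4.84 ± 0.58 CPM (log2 difference 0.85 ± 0.11, adjusted p = 3.4e-08), and was at 6.10 ± 0.60 against 4.16 ± 0.56 CPM without LPS. Nr3c1 +35.8 kb opened with LPS in both genotypes, by 1.01 ± 0.089 in WT and 1.06 ± 0.084 in AhR-KO (log2), and its interaction of 0.05 ± 0.12 was not called. A weak peak beyond the gene, Nr3c1 +112.6 kb, held 0.753 to 1.67 CPM in AhR-KO LPS libraries, above every WT LPS library (0.423 to 0.718 CPM). Its genotype difference changed sign, from -0.77 without LPS to 0.89 with LPS (interaction 1.66 ± 0.38, adjusted p = 0.00231). The call without LPS was lost when any one of 9 libraries was left out (-0.80 to -0.67), namely replicates 1, 2, 4 and 5 of WT and 2, 3, 4, 5 and 6 of AhR-KO, and under DESeq2 or its size factors (-0.72 and -0.71). The only other receptor peak called in opposite directions was Rxra +82.5 kb, at 0.61 without LPS and -0.64 with LPS.

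At the NR4A genes every genotype call was a loss in AhR-KO. Over the 28 tested peaks of Nr4a1 (chr15:101254269-101274795, plus strand), Nr4a2 (chr2:57106830-57124003, minus strand) and Nr4a3 (chr4:48045153-48086447, plus strand), 0 were higher in AhR-KO in either treatment. Lower were 7 with LPS (25%, against 13.1% of all tested peaks) under each scaling tried, and 3 without LPS (10.7%, against 12.6%), which became 1 under DESeq2 or its size factors and 4 without scaling. The median log2 fold change of the 28 was -0.22 without LPS and -0.33 with LPS, against -0.02 and 0.02 over all tested peaks. With LPS the direction was mixed, with 8 lower and 7 higher in WT and 10 lower and 5 higher in AhR-KO.

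Nr4a1, an early response gene of activated macrophages, lost accessibility with LPS at Nr4a1 -10.1 kb in both genotypes. That upstream peak held 8.88 to 11.6 CPM (median 10.1) in WT and 9.39 to 11.4 CPM (median 9.84) in AhR-KO unstimulated libraries, and 3.19 to 4.44 CPM and 1.86 to 4.38 CPM with LPS. The log2 fold change was -1.38 ± 0.13 in WT (adjusted p = 6.33e-12) and -1.60 ± 0.13 in AhR-KO (adjusted p = 1.42e-13), and the genotypes overlapped in each treatment. Closer to the gene, Nr4a1 -1.5 kb was lower in AhR-KO after LPS, with 1.96 to 2.94 CPM (median 2.39) in WT and 1.04 to 1.76 CPM (median 1.198) in AhR-KO, without overlap. The difference was -0.92 ± 0.14 (log2, adjusted p = 1.43e-06) and the interaction -0.68 ± 0.19 (adjusted p = 0.0131).

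Nr4a2 had 0 genotype DARs among 7 peaks, yet 7 of 7 fold changes were negative without LPS and 5 of 7 with LPS. Its start-site peak, Nr4a2 +8.0 kb, had the highest mean level of the named peaks, at 64.1 to 74.0 CPM (median 69.5) in WT and 48.2 to 57.3 CPM (median 52.3) in AhR-KO without LPS, and at 72.0 to 82.4 CPM (median 77.5) and 54.9 to 69.0 CPM (median 63.1) with LPS. The genotypes did not overlap in either treatment. Their log2 differences of -0.39 ± 0.057 (adjusted p = 7.27e-07) and -0.29 ± 0.056 (adjusted p = 4.41e-05) passed the adjusted p but not the fold minimum. LPS closed 3 Nr4a2 peaks in each genotype (42.9%, against 21.6% of all tested peaks in WT and 21.5% in AhR-KO). Among them was the coding-exon peak Nr4a2 +15.4 kb, with log2 fold changes of -1.14 (WT) and -1.07 (AhR-KO).

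Nr4a3 was lower in AhR-KO at 3 of 10 peaks without LPS (against 12.6% of all tested peaks), which became 1 under DESeq2 or its size factors. With LPS it was lower at 4 of 10 (against 13.1%) under each scaling tried. LPS opened 6 of its 10 peaks in WT (against 25.4%) and 5 in AhR-KO (against 27.3%). It closed 2 in each genotype (against 21.6% in WT and 21.5% in AhR-KO). Nr4a3 +4.9 kb, in an intron, was weak. It held 0.689 to 2.48 CPM (median 1.32) in WT LPS and 0.108 to 0.406 CPM (median 0.280) in AhR-KO LPS libraries, without overlap, a difference of -2.38 ± 0.33 (log2, adjusted p = 4.15e-07), and 1 of 24 libraries listed it as a peak of its own. The interaction of -1.104 ± 0.78 was not called. Downstream, Nr4a3 +55.3 kb closed with LPS in both genotypes (-1.59 ± 0.17 in WT, -1.66 ± 0.19 in AhR-KO). It was lower in AhR-KO by 0.61 without LPS and by 0.68 with LPS on the log2 scale. The call without LPS was lost without WT unstimulated replicate 3 or 4 or AhR-KO unstimulated replicate 1 or 6 (-0.57 to -0.55), and under DESeq2, its size factors or the stricter filter. The call with LPS was lost without WT LPS replicate 3 or AhR-KO LPS replicate 6 (-0.58).

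Few start-site peaks were called. Of the 15 peaks over a start site of their own receptor gene, 0 were DARs between genotypes in either treatment and 0 with LPS in WT, while 2 were lower with LPS in AhR-KO. Among all tested peaks, wherever they lie, 9.95% to 27.3% were called per direction in these 4 comparisons. The share among start-site peaks of all genes was not counted, so whether the receptor genes differ from other genes here was not tested. A further 5 receptor peaks covered a start site of a neighbouring gene only, among them Nr1h3 +0.1 kb, higher in unstimulated AhR-KO cells, and Nr1h3 +19.6 kb, lower with LPS in AhR-KO, and the other 3 were not called in any comparison. The 2 lowered peaks were Nr1h3 +7.9 kb, described above, and Rxra +1.0 kb. The latter held 5.89 to 8.56 CPM (median 6.96) in WT and 8.82 to 10.3 CPM (median 9.58) in AhR-KO without LPS, and 5.48 to 6.67 CPM (median 6.10) and 3.53 to 6.23 CPM (median 4.72) with LPS. AhR-KO was thus above WT before stimulation without overlap, and reached lower than WT after it. Its LPS change was -0.98 ± 0.11 in AhR-KO (log2, adjusted p = 6.6e-10) and -0.25 ± 0.11 in WT (adjusted p = 0.0503), and the interaction was -0.74 ± 0.16 (adjusted p = 0.00127).

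The other start-site peaks kept within the fold minimum, although several passed the adjusted p. Pparg +60.6 kb was at 18.2 ± 2.7 CPM in WT and 24.4 ± 2.0 CPM in AhR-KO without LPS, a log2 difference of 0.43 ± 0.094 (adjusted p = 0.00038), and at 14.8 ± 2.4 and 16.4 ± 1.5 CPM with LPS. Its LPS change in AhR-KO of -0.57 crossed the fold minimum under 4 of the alternative settings, at -0.65 to -0.61, and without replicate 2 or 3 of AhR-KO unstimulated or replicate 4, 5 or 6 of AhR-KO LPS (-0.61 to -0.59). Nr3c1 +28.9 kb was lower in AhR-KO by 0.26 in each treatment, with unstimulated libraries at 69.7 to 83.4 CPM in WT and 56.1 to 66.9 CPM in AhR-KO. Nr4a3 -0.1 kb was lower in AhR-KO too, by 0.26 without LPS and by 0.34 with LPS. The LPS change of Vdr +2.8 kb in WT, -0.54 ± 0.076, became -0.59 without WT LPS replicate 5. Ppard +0.4 kb, Vdr +2.8 kb and Nr4a1 +12.5 kb differed between unstimulated genotypes by 0.09, -0.15 and -0.18 with adjusted p of 0.36, 0.121 and 0.0831, and Rara +32.6 kb by 0.34 ± 0.075 with overlapping libraries.

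**Figure D4:**
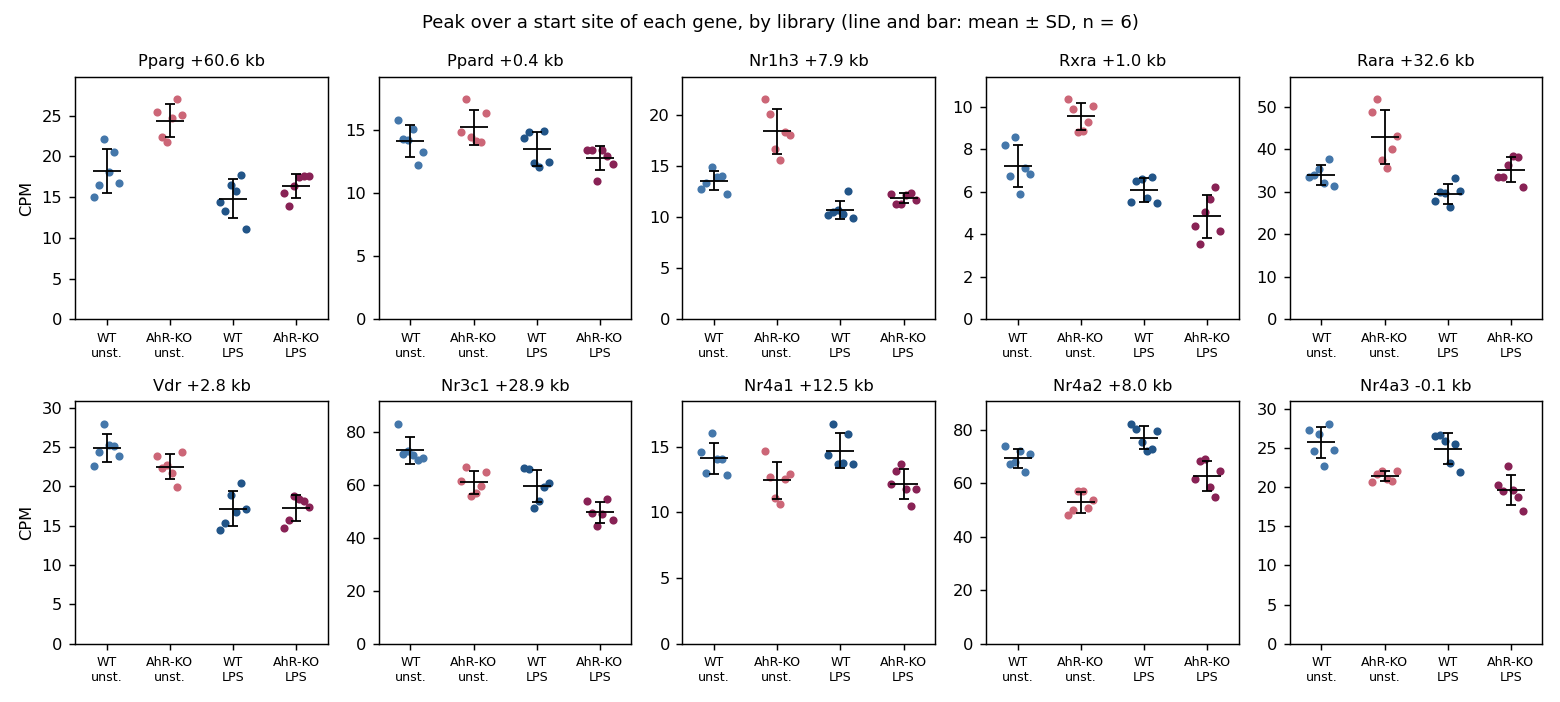
CPM (vertical axis, from 0) of the start-site peak with the highest mean level of each receptor gene in each of the 24 libraries, by group, with lines and bars for mean ± SD of 6 libraries. At Nr4a2 +8.0 kb the AhR-KO libraries lie below the WT libraries in both treatments, and at Rxra +1.0 kb they lie above WT without LPS.

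The calls for LPS in each genotype, and those for genotype in each treatment, were set side by side over the 180 peaks. The comparisons of each pair share no library. Of 80 DARs for LPS in WT and 89 in AhR-KO, 65 were called in the same direction in both (81.2% and 73.0% of the lists) and 1 in the opposite direction. Of 34 genotype DARs without LPS and 31 with LPS, 7 were shared in direction (20.6% and 22.6%) and 2 were opposite. As a description over 180 peaks, which share libraries and neighbourhoods, Pearson's r of the fold changes was 0.861 for LPS and 0.439 for genotype. The sign was the same at 155 peaks for LPS and at 121 for genotype. LPS changes were also larger, with 45 and 53 LPS DARs at a fold of at least 2, against 7 and 6 for genotype. These measures were not taken over all tested peaks, so they cannot be read as particular to the receptor genes.

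**Figure D5:**
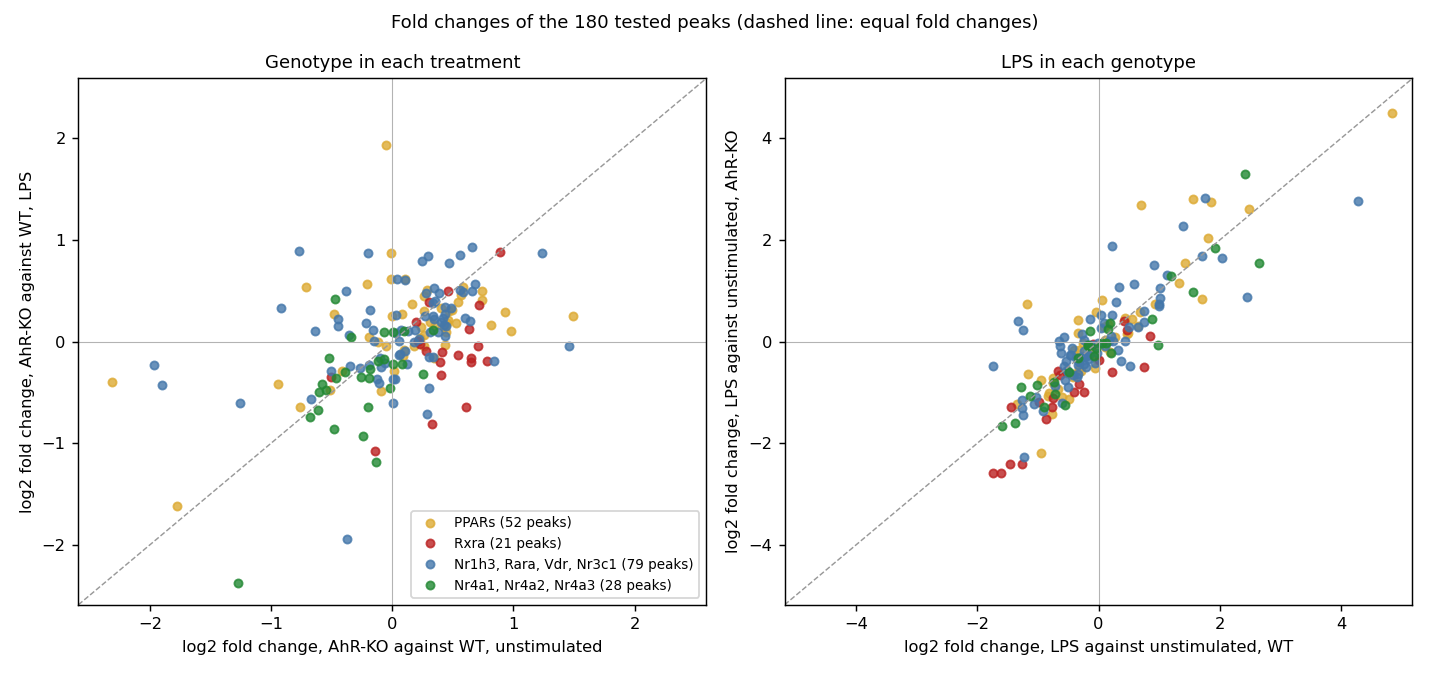
Log2 fold changes of the 180 tested peaks for genotype in each treatment (left panel) and for LPS in each genotype (right panel), coloured by receptor group, with a dashed line where both axes are equal. The points follow the line on the right (r = 0.861) and scatter on the left (r = 0.439), and the NR4A peaks (green) lie mostly below 0 on both axes of the left panel.

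The peak lists that the authors called in each library gave a coarser view of the same regions. Between 103 and 127 of the 185 peaks overlapped a call in a single library. Without LPS, 93 peaks were in all 6 lists of WT and 103 in all 6 of AhR-KO, and with LPS 98 and 92. Absent from every list of a group were 49 and 48 peaks without LPS and 37 and 36 with LPS. The same counts were not made over all consensus peaks, so differences between groups cannot be set against general differences between the lists. The library with the lowest count of peaks in its list, WT unstimulated replicate 5, was also the one with the lowest total of 8.54 M counts.

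Motif letters were counted in the 300-base windows of the tested peaks. The AhR core GCGTG occurred in 23.9% of the receptor windows and 16.3% of all windows. It was in 2 of 14 peaks lower and 3 of 20 peaks higher in unstimulated AhR-KO cells (14.3% and 15%), and in 5 of 16 lower and 2 of 15 higher with LPS (31.2% and 13.3%). The PU.1 core GAGGAA, a letter pattern of the macrophage factor PU.1, was in 72 of 180 receptor windows and 37.7% of all windows. It was found in 57.8% of the receptor windows closed by LPS in WT and 59.3% in AhR-KO, and in 22.9% and 7 of 35 of those opened by LPS. Of the 20 peaks higher in unstimulated AhR-KO cells, 14 held it (70.0%). AP-1 letters TGACTCA were in 13.6% of all windows, 14.4% of receptor windows and 28.6% and 31.4% of the receptor windows opened by LPS in WT and AhR-KO. Letters were not counted over all peaks of the series that LPS or genotype changed. These contrasts therefore cannot be read as particular to the receptor genes.

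Letters bound by nuclear receptors themselves were searched only as exact consensus letters, so variant sites were not counted. The hexamer AGGTCA was in 18.3% of receptor windows and 20.2% of all windows, the NR4A site AAAGGTCA, which contains the hexamer, in 1.11% and 2.03%, and NF-kB letters in 12.2% and 7.29%. CRE TGACGTCA, DR1, DR4 and the glucocorticoid response element were in 0 receptor windows and in 0.48%, 0.0666%, 0.0218% and 0.00804% of all windows. Letters this rare among all windows could easily be absent from so few receptor windows, so their absence does not set these genes apart. The median GC content was 51.0% in receptor windows and 46.3% in all windows, and the part of base composition in these shares was not tested. A match is a run of letters and was not tested as a binding site.

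Genes of the same pathways were counted by the same peak rule. Among 19 other nuclear receptors (297 tested peaks), 41 were lower and 44 higher in unstimulated AhR-KO cells, and after LPS 47 lower and 46 higher, shares of 13.8% to 15.8% beside 9.95% to 13.4% of all tested peaks. LPS lowered 77 (25.9%, against 21.6%) and raised 68 (22.9%, against 25.4%) of them in WT. In AhR-KO it lowered 88 (29.6%, against 21.5%) and raised 66 (22.2%, against 27.3%). A further 15 genes (347 peaks) encode coregulators, which carry the corepressor and coactivator activity of the receptors. Of these peaks, 42 were lower (12.1%, against 12.6%) and 40 higher (11.5%, against 9.95%) in unstimulated AhR-KO cells. After LPS 54 were lower (15.6%, against 13.1%) and 30 higher (8.65%, against 13.4%). LPS lowered 88 (25.4%, against 21.6%) and raised 64 (18.4%, against 25.4%) coregulator peaks in WT. In AhR-KO it lowered 107 (30.8%, against 21.5%) and raised 56 (16.1%, against 27.3%).

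Target genes of the lipid receptors had more peaks higher than lower in AhR-KO. Of 101 peaks at 7 PPAR targets, 23 were higher (22.8%, against 9.95% of all tested peaks) and 3 lower (2.97%, against 12.6%) in AhR-KO without LPS, and 31 higher (30.7%, against 13.4%) and 4 lower (3.96%, against 13.1%) with LPS. Lpl, lipoprotein lipase, accounted for 12 of the 23 and 10 of the 31, and Cd36, a scavenger receptor, for 3 and 14. Of 129 peaks at 7 LXR targets, 29 were higher (22.5%) and 9 lower (6.98%) without LPS. With LPS 20 were higher (15.5%, near the 13.4% of all peaks) and 4 lower (3.1%). Abcg1, a cholesterol exporter, gave 13 of the 29. LPS raised 44 of the LXR target peaks in WT (34.1%, against 25.4%) and 45 in AhR-KO (34.9%, against 27.3%). Of these, 31 and 33 were at Abca1, another cholesterol exporter.

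The remaining targets did not have more peaks higher than lower in AhR-KO. Of 100 peaks at 6 RAR and VDR targets, 12 were lower and 12 higher without LPS (against 12.6% and 9.95% of all tested peaks). With LPS 16 were lower (against 13.1%) and 12 higher (against 13.4%). These shares were near those of all peaks. Of the 100, 38 were at Rarb, which was counted among the other receptors as well. Of 115 peaks at 7 glucocorticoid receptor targets, 12 were lower and 12 higher in AhR-KO without LPS (10.4% each, against 12.6% and 9.95%). With LPS 23 were lower (20%, against 13.1%) and 6 higher (5.22%, against 13.4%). Of the 23, 8 were at Tsc22d3, which encodes the anti-inflammatory protein GILZ, and 7 at Sgk1, a kinase gene. LPS changed 33 of the 115 peaks downward (28.7%, against 21.6%) and 24 upward (20.9%, against 25.4%) in WT. In AhR-KO it changed 37 downward (32.2%, against 21.5%) and 23 upward (against 27.3%). Accessibility at a target gene is not a measure of receptor activity.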

How the data were processed

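ATAC-seq was measured in 24 libraries, 6 per group, grouped by the genotype and treatment in the labels; per the study's methods the replicates are separate animals of one experiment. The authors processed the reads with the nf-core atacseq pipeline on mm10 (bcl2fastq 2.20.0 and MACS2 per the labels) and deposited raw read-pair counts in 184158 consensus peaks. Per the file headers, featureCounts 2.0.1 gave a pair to every peak it overlapped by at least 0.2 of its length. Starts in that table were counted from 0, and 1 was added. The authors also deposited a broad peak list per library with -log10 q-values, used here for presence of a peak. All 24 count columns matched a library, and 0 were unused.

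Genes were those of GENCODE vM21, and peaks were intersected with bedtools 2.31.1. Counts were filtered with filterByExpr, scaled by TMM and fitted with the edgeR 4.0.16 quasi-likelihood model (R 4.3.3, limma 3.58.1) over all 24 libraries, 1 mean per group, for 5 comparisons. Two-sided p-values were corrected over 174193 peaks by the Benjamini-Hochberg method, and DARs followed the study's thresholds. The SE is the size of the log2 fold change divided by the square root of F. The procedure was tested on simulated data. The closest pair of libraries of a group had a chi-square per peak of 1.26, above sampling noise, so each library counted once.

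The genes, gene lists and tests were chosen with earlier results of these data known. Named peaks were, per gene, the start-site peak with the highest mean CPM and the DARs with the smallest p for genotype and for LPS, and, over all genes, the 3 lower and 3 higher DARs with the smallest p in each comparison. The alternatives were other scaling, filters, fold thresholds and peak assignments, DESeq2 1.42.0, a replicate block, and each library left out.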

Additional observations from a re-analysis of the deposited data

Results flagged for a closer look

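In 152 groups of 6 libraries at the named peaks, 7 held a library whose gap to its nearest neighbour was larger than Dixon's 95% limit, where chance gives about 1 in 20. The lone libraries were WT LPS replicate 5 at Nr1h3 +7.9 kb (12.5 CPM), AhR-KO LPS replicate 4 at Rxra +14.7 kb (1.86 CPM), WT unstimulated replicate 5 at Rxra +17.4 kb (14.5 CPM) and at Nr3c1 +35.8 kb (5.93 CPM), AhR-KO LPS replicate 1 at Rara +39.1 kb (0.861 CPM, low) and at Nr4a1 -1.5 kb (1.76 CPM), and WT unstimulated replicate 1 at Nr3c1 +28.9 kb (83.4 CPM). WT unstimulated replicate 5 had the lowest total count.

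The LPS change differed between the genotypes, by the interaction in edgeR, at 16 of the named peaks. It was more negative in AhR-KO at Pparg +102.2 kb (-0.64), Pparg +144.2 kb (-0.65), Rxra +1.0 kb (-0.74), Rxra +14.7 kb (-0.98), Rxra +17.4 kb (-0.85), Rxra +39 kb (-0.59), Rxra +48.8 kb (-0.93), Rara +12.5 kb (-1.03), Vdr +53.9 kb (-1.57) and Nr4a1 -1.5 kb (-0.68). It was more positive at Pparg +77.2 kb (1.99), Ppard +43.4 kb (1.92), Rara +39.1 kb (1.46), Vdr +72.9 kb (0.88), Vdr +57.7 kb (1.73) and Nr3c1 +112.6 kb (1.66). The calls at Pparg +77.2 kb, Pparg +144.2 kb, Rxra +39 kb and Vdr +53.9 kb were lost without some of the libraries named in the report.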

How the results depend on the processing

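The total counts of DARs among the receptor peaks, both directions together, stayed within 1.5 times the reported ones under other scaling, filters, DESeq2, the groups compared alone and a flank of 5 kb. By direction they moved further. The stricter filter, which tests fewer peaks, gave 8 lower in AhR-KO without LPS (14 reported), 8 higher with LPS (15), 22 raised by LPS in AhR-KO (35) and 5 positive interactions (11). A fold of at least 2 left 7 and 6 genotype DARs without and with LPS, 45 and 53 LPS DARs in WT and AhR-KO, and 11 interactions. Without a fold threshold there were 86 and 79 genotype DARs and 132 LPS DARs in WT. Counting only peaks whose nearest start site is that of the receptor gave 19 interactions, of which 6 were positive, 10 peaks lower in AhR-KO with LPS (16) and 21 raised by LPS in AhR-KO (35). With each library left out in turn, the counts ranged from 30 to 39 and from 26 to 33 for genotype without and with LPS, from 79 to 84 and from 83 to 93 for LPS in WT and AhR-KO, and from 25 to 31 for the interaction.

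Of 84 called changes at named peaks, 71 kept call and direction under every alternative, 13 lost the call without at least 1 library and 3 under another setting. Of 38 changes that were not called, 34 stayed so. Reversed signs were limited to values near 0. The genotype difference of Vdr +2.8 kb with LPS was 0.0023 and became -0.0237 without scaling, -0.0195 with only the groups compared, -0.000956 without a filter on low counts and -0.0276 with the stricter filter, and ranged from -0.0433 to 0.0552 with each library left out in turn. The LPS change of Nr4a1 +12.5 kb in AhR-KO was -0.03 and ranged from -0.0743 to 0.0219 with each library left out, above 0 without AhR-KO LPS replicate 5 or AhR-KO unstimulated replicate 1.

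The libraries were treated as unpaired, because the sources used here do not say that a number marks 1 animal and not every same-numbered pair correlated over 0.1. Of 6 pairs, 5 did between treatments in WT, 2 between treatments in AhR-KO, and 0 and 2 between genotypes without and with LPS. Whether both treatments of WT came from the same animals was not tested. Correlations of same-numbered libraries ran from -0.0967 to 0.0478 and from -0.128 to 0.22 between genotypes without and with LPS, and from 0.037 to 0.29 and from 0.00375 to 0.171 between treatments in WT and AhR-KO, and 4, 3, 7 and 6 of 12 libraries were closest to their own number. A replicate block gave 35, 31, 80, 89 and 29 DARs for the 5 comparisons, and the interaction at Rxra +39 kb fell below the fold minimum at -0.58. At levels under 1 CPM, as at Pparg +77.2 kb and Nr4a3 +4.9 kb, few counts stand behind each library, which limits precision.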
